A study of Mus musculus with 3 samples.

Results

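Lymphatic endothelial cells line the vessels that drain interstitial fluid and carry leukocytes out of the skin. From dorsal skin of mice, 3 libraries of single-cell RNA were profiled, and 779 of 33204 kept barcodes were taken as lymphatic endothelial cells. A barcode was kept with at least 500 genes, at least 1000 unique molecular identifiers (UMIs, counted transcripts) and at most 15% of its UMIs from mitochondrial genes. Members were selected on measured values: at least 3 of the 5 genes Prox1, Lyve1, Mmrn1, Flt4 and Reln with a UMI, no UMI of the leukocyte gene Ptprc and at most 2 UMIs of the collagen gene Col1a2. The young control library held 342 members, the young knockout library 94 and the old control library 343.

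Each group was 1 library. The young control skin came from mice 2.5 months old that carried Yap1 fl/fl and Wwtr1 fl/fl alleles and received tamoxifen. The young knockout skin came from mice of the same age with R26-CAG-CreER, Yap1 fl/fl and Wwtr1 fl/fl, given the same tamoxifen (0.11 mg per g body weight by gavage on 2 days a week for 4 weeks). R26-CAG-CreER is a tamoxifen-activated recombinase under a ubiquitous promoter, so deletion was not directed to a cell type. The old control skin came from untreated wild-type mice 24 months old, which differed from the young control in age, in the floxed alleles and in tamoxifen, and these cannot be told apart. The number of animals behind a library is not given in the labels. With 1 library per group there is no test across samples, and the intervals below cover counting error only.

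Lymphatic endothelium is set apart from blood endothelium by the transcription factor Prox1. Capillary lymphatic cells are known for the hyaluronan receptor Lyve1 and the chemokine Ccl21a, which draws dendritic cells into the vessel. Collecting vessels carry valves whose cells express Foxc2, Gata2, Itga9, Gja4 and Cldn11, and VEGF-C acting on the receptor Flt4 maintains the lineage. YAP and TAZ, encoded by Yap1 and Wwtr1, are transcriptional coactivators held in check by the Hippo kinases, and they act on DNA through the TEAD factors.

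The members held 2009336 UMIs in the young control library, 543271 in the young knockout library and 1172760 in the old control library. The median member held 3675 UMIs in the young control library, 2527.5 in the young knockout and 2001 in the old control. The largest member of the young knockout library held 12.8% of the UMIs of its 94 members, against 2.67% for the largest in the young control library and 5.99% in the old control library. The median mitochondrial share of members was 5.19%, 10.7% and 6.22% in the same order. In the young knockout library 62.4% of all deposited barcodes exceeded the mitochondrial limit, against 12.3% in the young control and 19.4% in the old control library. No member barcode occurred in more than 1 library. The libraries also differed in sex: members of the young knockout library held 72 UMIs of the Y-linked gene Ddx3y and 0 of Xist, while members of the young and old control libraries held 0 of Ddx3y and Xist at 1033 and 1064 CPM (UMIs of a gene per 1000000 UMIs summed over the members of a library). Sex and deletion cannot be told apart.

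The share of kept barcodes that were members was 2.92% (exact 95% binomial interval 2.62 to 3.24%) in the young control library, 0.999% (0.808 to 1.22%) in the young knockout library and 2.84% (2.55 to 3.15%) in the old control library. The knockout share lay below both control shares, and the control shares overlapped. With every barcode thinned to 1000 UMIs before selection, the shares were 2.83%, 0.393% and 1.69%, so the gap between the controls was wider at equal depth. Asking for at least 2 markers gave 3.46%, 2.55% and 5.09%, and asking for at least 4 gave 2.44%, 0.489% and 1.51%. In each of these settings the knockout library had the lowest share. A further 93 barcodes of the young knockout library met the marker rule but exceeded the mitochondrial limit, nearly as many as its members, against 9 in the young control and 21 in the old control library. The share of a suspension depends on the other cells in it: the blood endothelial gate (at least 3 of Pecam1, Cdh5, Plvap, Flt1, Emcn and Aqp1, at most 1 lymphatic marker) took 415, 2159 and 278 cells of the young control, young knockout and old control libraries.

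**Figure D1:**
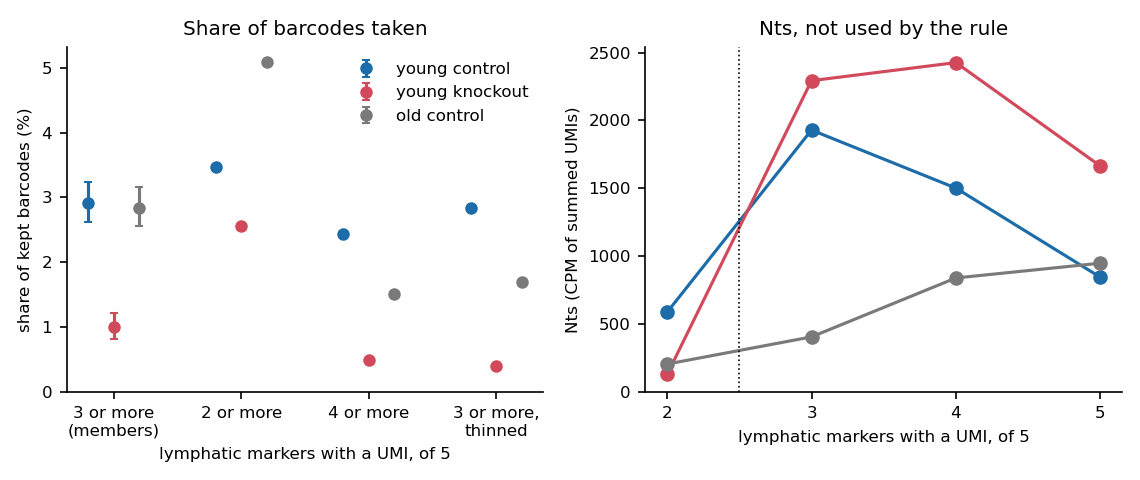
Left, share of kept barcodes (percent) taken by the marker rule in each library when 3, 2 or 4 of the 5 lymphatic markers are required and after thinning to 1000 UMIs; bars are exact 95% binomial intervals, drawn for the members only. Right, CPM of Nts, which the rule did not use, in barcodes with 2 to 5 markers. The dotted line marks the threshold. Young knockout barcodes went from 127 CPM at 2 markers to 2294 at 3, largely from 1 barcode with 244 Nts UMIs.

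Members were spread differently over the threshold. Exactly 3, 4 and 5 markers were found in 56, 128 and 158 members of the young control library, in 48, 29 and 17 of the young knockout library and in 161, 100 and 82 of the old control library. Just outside the rule, with 2 markers, lay 64, 146 and 271 barcodes. Nts, the neurotensin gene and a marker of lymphatic endothelium that the rule did not use, stood at 586 CPM in the young control barcodes with 2 markers and at 1930 in those with 3. In the young knockout library the same values were 127 and 2294, and in the old control library 204 and 404. Barcodes just outside the rule carried less Nts than those just inside it in every library.

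Summed over the members of each library, the label held against genes that the rule did not use. Of 24 lymphatic identity genes with a mean level of at least 20 CPM, 19 were higher in members than in the blood endothelial gate of the same library in all 3 libraries, by at least 2-fold with the near bound of the interval past 1.5, and 0 were lower. Nts was 138, 152 and 154 times as high in members as in the blood endothelial gate of the young control, young knockout and old control libraries. Pdpn, encoding podoplanin, was 30.0, 19.1 and 10.4 times as high, and the atypical chemokine receptor gene Ackr2 was 259, 55.8 and 70.9 times as high. Of 18 genes shared by all endothelium, Cldn5 and Tspan18 were higher in members in all 3 libraries and Esam was lower. The tight junction gene Cldn5 stood at 1851, 1607 and 1236 CPM against 704, 135 and 264 in the blood endothelial gate, and the adhesion gene Esam at 52.3, 84.7 and 30.7 CPM, which was 0.0918, 0.339 and 0.108 of its level there. Vwf, encoding von Willebrand factor and not used by either gate, was lower in members, at 10.9, 62.6 and 23.9 CPM against 585, 309 and 414. The label was less secure for the 161 old members with exactly 3 markers. They held 1654 CPM of the keratin gene Krt14 and 308 of Pecam1, against 210 and 558 in old members with 5. In young control members Krt14 stood at 1106 CPM with 3 markers and 169 with 5, and Pecam1 at 559 and 573. A UMI of Pecam1, Cdh5 or Cldn5 was found in 340 of 342 young control, 88 of 94 young knockout and 290 of 343 old members. RNA of other cells was found in members. Over 5 keratinocyte markers members held 1600, 254 and 2426 CPM in the young control, young knockout and old control libraries, over 5 mural markers 338, 1323 and 235 CPM, and over 8 macrophage markers 132, 97.6 and 63.1 CPM, with C1qb and Csf1r at 0 UMIs in the young knockout members. Over 3 Schwann cell markers they held 64.2, 479 and 124 CPM, over 8 blood endothelial markers 746, 1115 and 860 CPM, over 5 fibroblast markers 705, 475 and 814 CPM, over 4 lymphoid markers 7.96, 12.9 and 88.7 CPM, and over 2 haemoglobin genes 1340, 177 and 212 CPM. The part of this RNA in the differences below was not tested beyond the values given beside them.

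**Figure D2:**
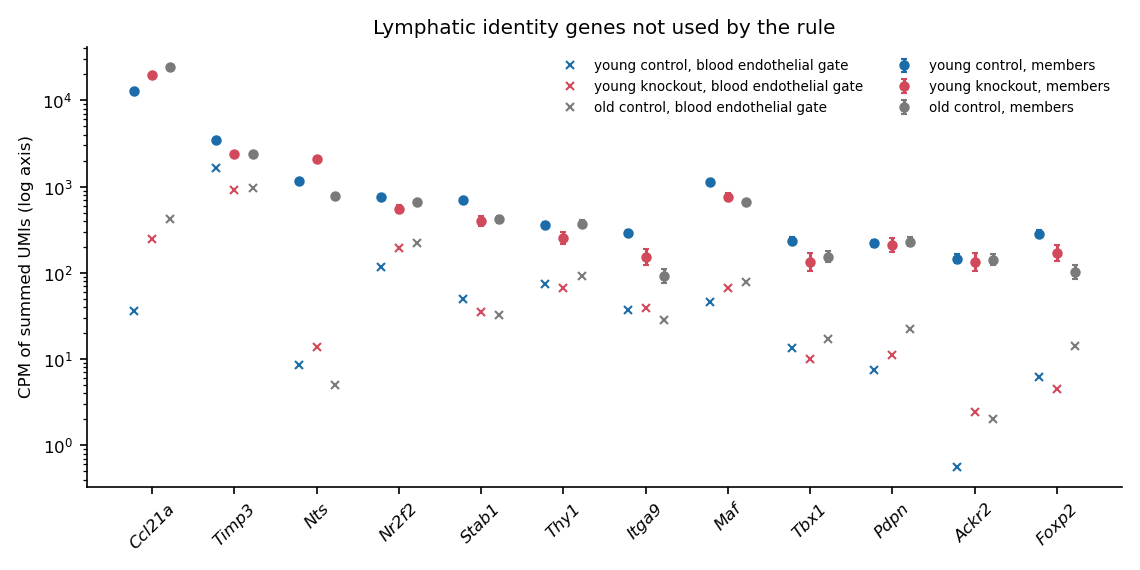
Level (CPM of summed UMIs, log axis) of 12 lymphatic identity genes that the rule did not use, in members (points, exact Poisson 95% intervals) and in the blood endothelial gate (crosses) of each library. The members lie above the blood endothelial gate for each gene drawn, by the least for Timp3.

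The genes used for selection are given as a description. Prox1 stood at 1486 CPM in young control members, 948 in young knockout members and 745 in old control members. Lyve1 stood at 1032, 501 and 1250 CPM, Mmrn1 at 2595, 1603 and 2475, Flt4 at 843, 530 and 582, and Reln, encoding the secreted glycoprotein reelin, at 849, 593 and 849.

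Differences between libraries were counted by a rule of size. A gene that averaged 20 CPM or more over the 3 libraries was called when it was higher or lower by 2-fold or more and the bound of its exact 95% interval nearest to no change was past 1.5-fold. Of 6263 genes so measured, 129 (2.06%) were called higher and 206 (3.29%) lower in young knockout than in young control members. In old against young control members, 88 (1.41%) were called higher and 159 (2.54%) lower. The median gene differed by -0.12 and -0.09 on the log2 scale. Scaling by TMM in place of totals gave 154 higher and 180 lower calls in the knockout and 105 and 125 in old members, and median-of-ratios scaling gave 171 and 161, and 111 and 110. Many calls were of genes more abundant in another cell type: 89 of the 129, 97 of the 206, 78 of the 88 and 30 of the 159 were higher in the keratinocyte, mural, fibroblast or immune gate than in members, in the library with the higher value. For 78 of the 88 genes higher in old members another cell type of the same skin held more of the RNA. The gene lists below were written with earlier results of these data known. Their counts beside the shares of all genes are therefore descriptions.

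Lymphatic identity genes were compared among members, which the rule had chosen by lymphatic markers. Barcodes with fewer than 3 of the 5 markers were left out, so the counts cannot show that identity was kept. In the young knockout 0 of 24 lymphatic identity genes were called in either direction, against 2.06% and 3.29% of all genes. Those shares are too small for 24 genes to show a lack of calls. The list median was -0.42 on the log2 scale over the 25 with a mean of at least 5 CPM. In old members 2 of 24 were called lower (Foxp2 and Itga9) and 0 higher, against 2.54% and 1.41% of all genes, with a median of -0.21. The chemokine gene Ccl21a (ENSMUSG00000094686, chromosome 4: 42772860 to 42773993 in GRCm38) was the most abundant of them, at 12971 CPM in young control members, 19440 in young knockout members and 24113 in old members. Over the young control its knockout ratio was 1.5 (1.47 to 1.53), with 28.4% of the knockout UMIs in 1 member, and its old ratio 1.86 (1.83 to 1.89), both short of the 2-fold mark. In the blood endothelial gate it stood at 36.2, 247 and 416 CPM. Near-identical copies of this gene exist in the genome, among them a second feature of the same symbol with at most 3.41 CPM, so the split of reads between copies is uncertain. Nts stood at 1174, 2093 and 772 CPM, a knockout ratio of 1.78 (1.66 to 1.92) and an old ratio of 0.658 (0.608 to 0.710). A UMI of Nts was found in 47.7%, 47.9% and 39.1% of members, against 2.89%, 3.15% and 1.80% of blood endothelial cells. The tenth of members with the most Nts UMIs held 70.1%, 82.1% and 80.2% of them, so the Nts level of each library rested on few cells. Pdpn differed little, at 220, 210 and 229 CPM, and so did Ackr2, at 146, 134 and 142 CPM. The transcription factor gene Foxp2 was called lower in old members, at 285, 171 and 102 CPM (ratio 0.359, 0.292 to 0.438).

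The targeted genes were examined next. Wwtr1, encoding TAZ, lies on chromosome 3 (57455649 to 57575910, minus strand). It stood at 385 CPM in young control members, 18.4 in young knockout members and 268 in old members. Its knockout ratio was 0.0478 (0.0229 to 0.0885), with 10 UMIs left in 9 of the 94 members. The ratio was 0.0523 in the blood endothelial gate, and the call was kept in all 13 alternative settings. Yap1, on chromosome 9 (7931999 to 8004596, minus strand), stood at 93.6, 35.0 and 54.6 CPM, a knockout ratio of 0.374 (0.220 to 0.600). That call was lost in 4 of 13 settings, and the blood endothelial gate did not meet it. The labels do not name the floxed exons, so a 3′ tag may read transcript outside the deleted part. In old members both genes were lower than in young control members without meeting the rule, with ratios of 0.696 for Wwtr1 and 0.583 for Yap1.

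Of 23 genes listed as targets of YAP and TAZ, 12 reached 20 CPM. In the young knockout 4 of the 12 were called lower and 0 higher, against 3.29% and 2.06% of all genes. In old members 0 were called lower and 1 higher (Ctgf, at a ratio of 2.39), against 2.54% and 1.41%. Cyr61, which encodes a secreted matricellular protein, stood at 1611 CPM in young control members, 622 in young knockout members and 833 in old members, a knockout ratio of 0.386 (0.344 to 0.432). In the blood endothelial gate its knockout ratio was 1.24. Ctgf, its close relative, stood at 44.3, 7.36 and 106 CPM (ratio 0.166, 0.0443 to 0.441, on 4 UMIs in the knockout). Tgfb2, encoding a transforming growth factor, stood at 156, 40.5 and 171 CPM (ratio 0.260, 0.161 to 0.401). Amotl2, an angiomotin gene that feeds back on the pathway, stood at 151, 57.1 and 118 CPM (ratio 0.378, 0.253 to 0.549). The calls of Tgfb2 and Amotl2 were also met in the blood endothelial gate, and those of Cyr61 and Ctgf were not. Among targets short of the rule, Ptpn14, a phosphatase gene, stood at 445, 306 and 282 CPM (knockout ratio 0.686) and Gadd45b, a stress gene, at 281, 514 and 426 CPM (1.83). The median of 19 targets with at least 5 CPM was -0.20 in the knockout, where the median gene stood at -0.12, and it ranged from -0.75 to 0.28 over the settings.

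The proximal promoters of Cyr61 and Amotl2 are shown because both genes were lower together and each holds a match to the TEAD motif GGAATG (or CATTCC on the other strand), in capitals. They cover the 250 bases before the RefSeq start (GRCm38.p6, read 5′ to 3′ on the gene's strand), Cyr61 at chr3:145649986-145650235 (minus strand, RefSeq symbol Ccn1) and Amotl2 at chr9:102717554-102717803 (plus strand).
Cyr61: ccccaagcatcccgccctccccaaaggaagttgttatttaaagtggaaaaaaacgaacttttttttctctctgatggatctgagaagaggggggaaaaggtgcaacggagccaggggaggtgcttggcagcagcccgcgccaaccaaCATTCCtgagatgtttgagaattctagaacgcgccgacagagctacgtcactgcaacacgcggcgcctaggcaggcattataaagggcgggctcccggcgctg
Amotl2: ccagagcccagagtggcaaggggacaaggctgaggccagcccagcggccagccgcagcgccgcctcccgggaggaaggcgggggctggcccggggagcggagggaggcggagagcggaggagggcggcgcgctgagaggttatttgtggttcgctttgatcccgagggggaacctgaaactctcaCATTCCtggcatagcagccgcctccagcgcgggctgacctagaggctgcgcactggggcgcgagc
The match began 103 bases before the start of Cyr61 and 65 before that of Amotl2. The same window of Tgfb2 held 0 matches, and Ctgf had no entry in the table. Across 32536 promoter windows of this length, 12.6% held the motif. A match describes the letters only.

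In the Hippo pathway, 4 of 17 measured genes were called lower in the knockout and 1 higher, against 3.29% and 2.06% of all genes. Wwtr1 and Yap1 among the 4 are the targeted genes themselves, and Amotl2 was already counted among the targets. The count is therefore not a separate result about the pathway. Besides Wwtr1, Yap1 and Amotl2, Frmd6, which encodes an upstream FERM protein, was lower, at 218, 103 and 149 CPM (ratio 0.472, 0.351 to 0.624). Tead4 was higher, at 13.4, 49.7 and 11.9 CPM (ratio 3.70, 2.09 to 6.55). The calls of Frmd6 and Tead4 were each lost in 5 of 13 settings. The kinase gene Lats2 stood at 119, 69.9 and 99.8 CPM and Tead1 at 122, 75.5 and 78.4 CPM, short of the rule. In old members 0 of the 17 were called in either direction, where 1.41% of all genes were called higher and 2.54% lower.

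**Figure D3:**
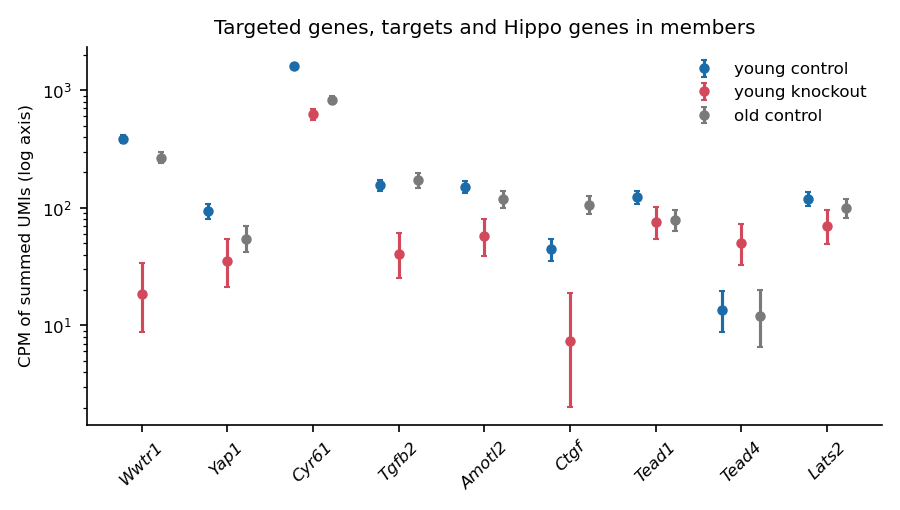
Level in members (CPM of summed UMIs, log axis; bars are exact Poisson 95% intervals) of the targeted genes Wwtr1 and Yap1, 4 targets and 3 genes of the Hippo pathway. Young knockout members sit lowest for both targeted genes and the 4 targets, and highest for Tead4.

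Genes of collecting vessels and valves were lower in old members. Of 18 measured, 9 were called lower and 1 higher, against 2.54% and 1.41% of all genes. The list median was -0.80 over 20 genes, between -0.97 and -0.71 in the settings tried, with the median gene at -0.09. Cldn11, a claudin gene of the valve (chromosome 3: 31149920 to 31164324), stood at 143 CPM in young control members, 103 in young knockout members and 31.5 in old members (old ratio 0.221, 0.152 to 0.312). The forkhead gene Foxc2, needed for valve formation, stood at 98.0, 60.7 and 23.9 CPM (0.244, 0.158 to 0.363). Gja4, encoding connexin 37, stood at 62.7, 55.2 and 11.9 CPM (0.190, 0.101 to 0.331). The integrin gene Itga9 stood at 291, 153 and 92.1 CPM (0.316, 0.255 to 0.389). In each of these 4 genes old members were lowest, and their intervals did not overlap those of the young control.

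Cd24a, a surface sialoglycoprotein gene, had the largest level of the genes called lower in this list, at 629, 381 and 143 CPM (0.228, 0.193 to 0.268). Gata2, a transcription factor gene, stood at 116, 79.2 and 37.5 CPM, and Nos3, encoding endothelial nitric oxide synthase, at 63.2, 92.0 and 22.2 CPM. Piezo1, a stretch-activated channel gene, stood at 146, 107 and 69.1 CPM, and the matrix gene Emilin1 at 61.7, 64.4 and 26.4 CPM, at ratios of 0.474 and 0.428. The call of Emilin1 was lost in 8 of 13 settings, that of Piezo1 in 4 and that of Nos3 in 3. All 9 calls were lost without members that held RNA of other cells, a setting that left 23 young control and 63 old members, in which the ratio was 0.643 for Foxc2, 0.482 for Cd24a and 0.286 for Cldn11. Gata2 and Nos3 also met the rule in the blood endothelial gate of the old library, and the other 7 did not. In the young knockout 1 of the 18 genes was called lower and 0 higher, against 3.29% and 2.06% of all genes.

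Cells with UMIs of at least 2 of the 6 markers Foxc2, Cldn11, Gja4, Itga9, Nfatc1 and Gata2 made up 69.9% of young control members, 34.0% of young knockout members and 17.8% of old members. Nfatc1 and Itga9 alone had a UMI in 69.9% and 58.5% of young control members, so 2 markers do not single out valve cells. Such cells were deeper there, at a median of 4662 UMIs against 2332 in the other members. All of the 6 but Nfatc1 were called lower in old members above, so the shares are not separate evidence. Because young control members were deeper, members were also thinned to 1000 UMIs each, which gave 23.7% (19.3 to 28.6%), 4.26% (1.17 to 10.5%) and 2.92% (1.41 to 5.30%). The young control share stayed above both others, and those overlapped. In thinned blood endothelial cells the shares were 1.45%, 1.07% and 1.08%, and in immune cells 0.519%, 0.566% and 0.0730%. In old members Cldn11 had a UMI in 4.96% of cells, against 34.5% of young control members and 0.719% of old blood endothelial cells.

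**Figure D4:**
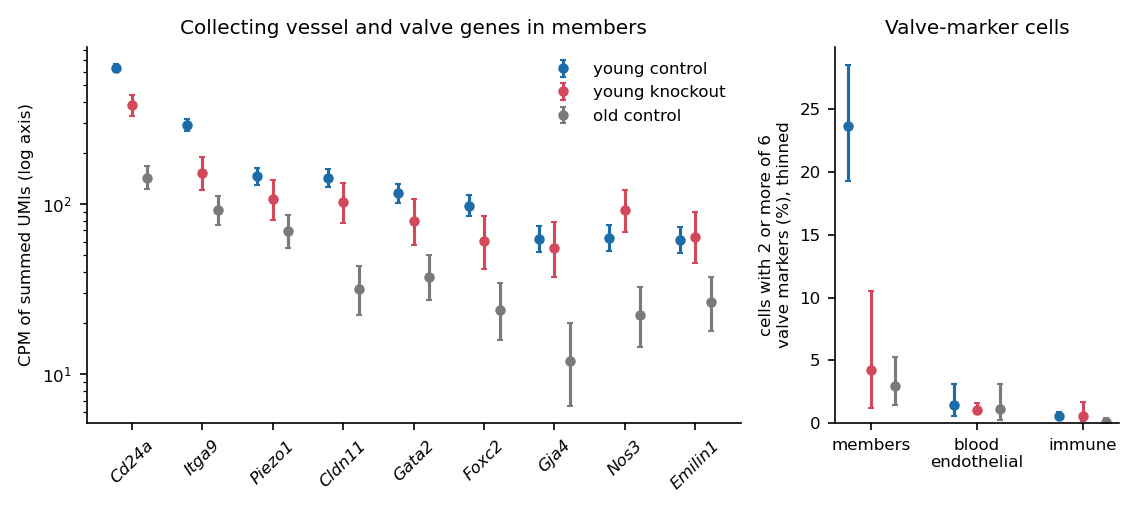
Left, level in members (CPM of summed UMIs, log axis; exact Poisson 95% intervals) of 9 collecting vessel and valve genes in the 3 libraries. Right, percent of cells with UMIs of at least 2 of 6 collecting vessel or valve markers after thinning each cell to 1000 UMIs, with exact 95% binomial intervals: 23.7% of young control members against 4.26% and 2.92%. The markers do not single out valve cells.

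In the signalling pathways of lymphatic growth, 13 genes were measured. Angpt2, the angiopoietin made by lymphatic vessels, stood at 121, 118 and 44.3 CPM and was called lower in old members (ratio 0.365, 0.265 to 0.494). The receptor gene Kdr stood at 838, 504 and 493 CPM, Tie1 at 332, 204 and 196 CPM, and Nrp2, the co-receptor of Flt4, at 356, 440 and 304 CPM, none past the rule. The ligand gene Vegfc stood at 3.48, 3.68 and 0.853 CPM, too low to compare. In all, 1 of 13 genes of this list was called lower in the knockout (Angptl4) and 2 of 13 in old members (Angpt2 and Flt1). Of all genes, 3.29% and 2.54% were called lower. In this list 0 were called higher in either, against 2.06% and 1.41% of all genes. The Notch ligand gene Dll4 was called lower in both, at 217, 88.4 and 91.2 CPM, and the blood endothelial gate met the same call in both. The 2 comparisons share the young control library.

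Genes induced by interferon were split in the knockout. Of 14 measured, 3 were called higher and 5 lower, against 2.06% and 3.29% of all genes. Isg15, a ubiquitin-like modifier gene (chromosome 4: 156199424 to 156200818, minus strand), stood at 36.3 CPM in young control members, 670 in young knockout members and 69.9 in old members. Its knockout ratio was 18.4 (14.3 to 24.1), with UMIs in 44 of 94 knockout members and 20.9% of them in 1 cell. Without the tenth of members with the most UMIs the ratio was 14.4, and the call was kept in all settings. Ifit1, an RNA-binding antiviral gene, stood at 26.9, 252 and 14.5 CPM (ratio 9.38, 6.80 to 13.1), with 35.8% of the knockout UMIs in 1 member, and its call was also kept throughout. The blood endothelial gate met both calls, with knockout ratios of 6.13 for Isg15 and 5.42 for Ifit1.

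Rsad2, the third gene called higher, stood at 10.9, 53.4 and 51.2 CPM, with 62.1% of the knockout UMIs in 1 member, and its knockout ratio of 4.88 was 1.36 after thinning to 1000 UMIs.

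The promoters of Isg15 and Ifit1 are shown because both were called higher under every setting. They hold the interferon-stimulated response element GAAANNGAAA or its reverse complement TTTCNNTTTC, in capitals (250 bases before the RefSeq start, GRCm38.p6, 5′ to 3′ on the gene's strand), Isg15 at chr4:156200819-156201068 (minus strand) and Ifit1 at chr19:34640639-34640888 (plus strand).
Isg15: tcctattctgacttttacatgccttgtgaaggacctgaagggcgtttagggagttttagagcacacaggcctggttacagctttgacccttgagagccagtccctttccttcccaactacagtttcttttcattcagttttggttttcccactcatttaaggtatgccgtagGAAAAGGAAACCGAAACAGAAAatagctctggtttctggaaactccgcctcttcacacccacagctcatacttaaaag
Ifit1: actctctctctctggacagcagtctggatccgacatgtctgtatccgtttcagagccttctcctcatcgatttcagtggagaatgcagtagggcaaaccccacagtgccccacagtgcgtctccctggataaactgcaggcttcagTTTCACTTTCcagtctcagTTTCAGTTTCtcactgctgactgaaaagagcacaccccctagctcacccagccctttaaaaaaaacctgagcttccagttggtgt
Isg15 held 3 overlapping matches that began 78, 72 and 66 bases before the start, and Ifit1 held 2, at 104 and 85 bases. Of the 32536 windows, 2.98% held a match. Rsad2 held 1. These are descriptions of the letters.

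Among genes of interferon-induced GTPases, Iigp1, Gbp4 and Igtp were called lower in both comparisons, which share the young control library. Iigp1 stood at 869 CPM in young control members, 142 in young knockout members and 246 in old members (knockout ratio 0.163, 0.128 to 0.205; old ratio 0.283, 0.249 to 0.320). Gbp4 stood at 125, 25.8 and 17.9 CPM (0.206 and 0.143), and Igtp at 111, 35.0 and 22.2 CPM (0.314 and 0.199). In old members 7 of 14 interferon response genes were called lower and 1 higher, against 2.54% and 1.41% of all genes. The higher one was Rsad2, at a ratio of 4.67, and at 0.426 without the tenth of members with the most UMIs. All 7 genes called lower met the rule in the old blood endothelial gate as well. Gbp2, Gbp3, Gbp4, Gbp7, Igtp and Iigp1 were among them. Gbp7 stood at 244, 151 and 68.2 CPM, and its old ratio of 0.280 (0.218 to 0.355) was kept past the rule in every setting. Gbp2b, outside the list, had 144 UMIs in young control members, 20 in young knockout members and 0 in old members, at least 28-fold lower in old members against a floor of 3 UMIs per library.

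Genes of antigen presentation by MHC class I were lower in both comparisons, which share the young control library. In the knockout 5 of 12 were called lower and in old members 4 of 12, with 0 higher, against 3.29% and 2.54% of all genes called lower. In either comparison 0 of the 12 stood above a ratio of 1. Among all 10115 genes with a mean of at least 5 CPM, 4381 did in the knockout and 4413 in old members. The heavy chain gene H2-K1 stood at 2273, 1009 and 1208 CPM (0.444 and 0.532) and the light chain gene B2m at 2246, 1071 and 1176 CPM (0.477 and 0.524). The peptide transporter gene Tap1 stood at 127, 31.3 and 37.5 CPM and was called in both (0.247 and 0.296). All 5 knockout calls were met in the blood endothelial gate too. Of 4 MHC class II genes measured, all 4 were called lower in the knockout and 0 in old members, against 3.29% and 2.54% of all genes. The calls of H2-Ab1 and H2-Aa were kept in all settings, while that of Cd74 was lost in 3 and that of H2-Eb1 in 2. H2-Ab1 stood at 194, 31.3 and 139 CPM and H2-Aa at 170, 36.8 and 123 CPM. In the immune gate H2-Aa stood at 2727, 1491 and 2394 CPM, and over 8 macrophage markers members held 132, 97.6 and 63.1 CPM in the same order of libraries.

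**Figure D5:**
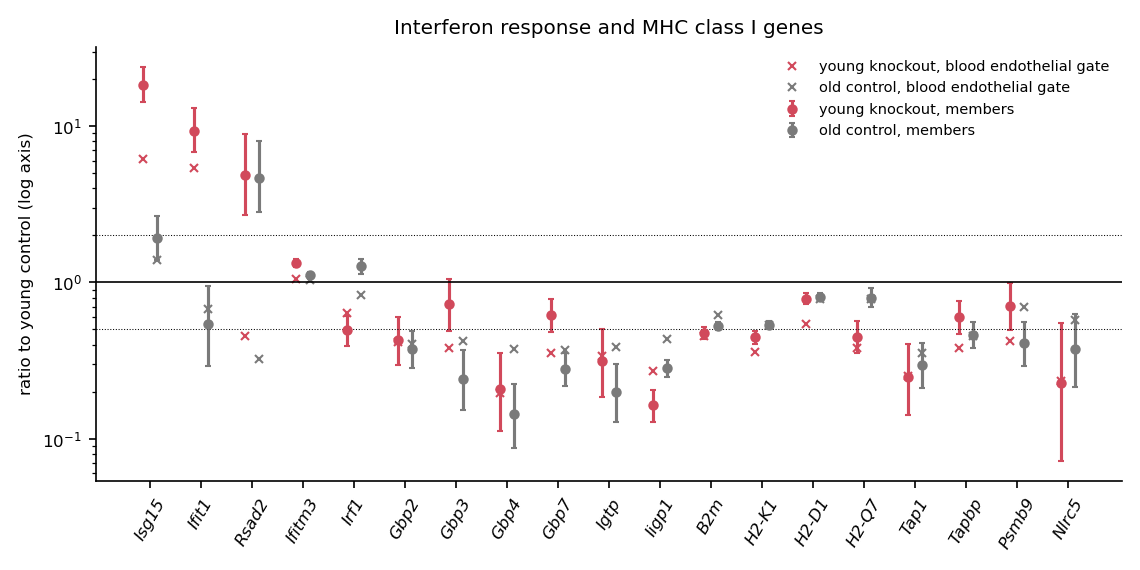
Ratio to the young control library (log axis) of 11 interferon response and 8 MHC class I genes in members (points, exact 95% intervals) and in the blood endothelial gate (crosses). Dotted lines mark ratios of 2 and 0.5; Isg15 and Ifit1 lie at 18.4 and 9.38 in the young knockout and at 1.92 and 0.539 in the old control, while the Gbp and Igtp genes lie below 1 in both.

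Of 12 leukocyte adhesion and inflamed endothelium genes, 3 (Sele, Selp and Vcam1) were called higher in the knockout and the same 3 in old members, with 0 lower and 9 not called in either, against 2.06% and 1.41% of all genes called higher. The 2 comparisons share the young control library, and the calls rested on few cells. Sele, encoding E-selectin, had UMIs in 3, 15 and 24 members of the young control, young knockout and old control libraries and stood at 4.48, 127 and 70.8 CPM. Its ratio was 28.4 (14.1 to 64.6) in the knockout and 15.8 (7.93 to 35.8) in old members. A single member held 43.5% of the knockout UMIs. Vcam1 stood at 4.98, 118 and 20.5 CPM, with 65.6% of the knockout UMIs in 1 member. Selp, encoding P-selectin, stood at 20.4, 175 and 47.8 CPM. These 3 genes were lower in members than in the blood endothelial gate of the same library in all 3 libraries. When at least 4 lymphatic markers were required, the knockout ratio was 3.01 for Sele, 5.01 for Vcam1 and 0.579 for Selp. All 3 knockout calls were lost in that setting, and the direction of Selp turned. The old calls of Selp and Vcam1, at ratios of 2.34 and 4.11, were lost in 6 and 5 settings.

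Among 18 chemokine, cytokine and sphingosine-1-phosphate genes, 6 were called higher in the knockout and 1 lower, against 2.06% and 3.29% of all genes. Il6, encoding interleukin 6, stood at 27.9, 320 and 19.6 CPM (ratio 11.5, 8.46 to 15.8), with UMIs in 49 of 94 knockout members. Cxcl1, which draws neutrophils, stood at 24.9, 123 and 16.2 CPM, and Csf3, the granulocyte growth factor gene, at 14.4, 123 and 11.1 CPM. With at least 4 markers the knockout ratios were 7.44 for Il6, 2.52 for Cxcl1 and 2.42 for Csf3. Ccl2, Cxcl2 and Cxcl10 stood below 1 there, at 0.645, 0.713 and 0.785. Of the 6 higher calls only that of Il6 was kept in that setting. Without members that held RNA of other cells (23, 29 and 63 members left) the Il6 ratio was 0.963. All 6 were also called higher in the blood endothelial gate of the knockout library, and each stood higher there than in knockout members. Ccl8, a monocyte chemokine gene, was lower in both comparisons, which share the young control library, at 68.2, 11 and 5.97 CPM. The sphingosine-1-phosphate exporter gene Spns2, which in lymphatic endothelium serves lymphocyte exit, stood at 188, 153 and 107 CPM without meeting the rule.

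Of 15 heat shock genes measured, 3 were called higher in the knockout and 0 lower, against 2.06% and 3.29% of all genes. The 3 calls were kept in every setting. Hspa1a stood at 64.7, 324 and 86.1 CPM (5.01, 3.97 to 6.33), Hspa1b at 233, 895 and 292 CPM (3.84, 3.38 to 4.37) and Hspb1 at 325, 904 and 727 CPM (2.78, 2.47 to 3.13). The blood endothelial gate met the knockout calls of Hspa1a and Hspa1b and not that of Hspb1. Hspb1 was called higher in old members too (2.24, 2.02 to 2.48), 1 of the 15 against 1.41% of all genes. The old blood endothelial gate did not meet that call. Of 11 clock genes measured, 4 were called lower in the knockout and 0 higher, against 3.29% and 2.06% of all genes. All 4 were also called in the blood endothelial gate. Nr1d1, a nuclear receptor gene of the clock, had a ratio of 0.216, and Dbp, a clock-controlled transcription factor gene, 0.228, both kept in all settings. No collection time is given in the labels. In old members 0 of the 11 were called, where 1.41% of all genes were called higher and 2.54% lower.

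Among matrix genes, old members were lower in 3 of 21 and higher in 1, against 2.54% and 1.41% of all genes. Fn1, encoding fibronectin, stood at 394, 175 and 113 CPM (old ratio 0.286, 0.236 to 0.344), the collagen IV gene Col4a1 at 313, 195 and 113 CPM (0.360, 0.296 to 0.435) and the laminin gene Lamb1 at 204, 149 and 77.6 CPM (0.380, 0.300 to 0.478). All 3 calls were kept in every setting and were met in the blood endothelial gate. In the knockout Fn1 was called lower and Sparcl1, Fbln2, Vwf, Mgp and Sparc higher. Those were 1 and 5 of the 21, against 3.29% and 2.06% of all genes. All 5 higher calls were lost with at least 4 markers, where Mgp stood at a ratio of 0.627, and also without members that held RNA of other cells, where Sparcl1 stood at 0.385. These 5 were lower in members than in the blood endothelial gate of the same library in all 3 libraries. For the other lists below, the shares of all genes called were 2.06% higher and 3.29% lower in the knockout. In old members they were 1.41% and 2.54%. In the knockout 0 of 18 pan-endothelial genes were called, and in old members 2 were lower, Mmrn2 (143, 232 and 54.6 CPM) and Cyyr1, both also in the blood endothelial gate, with the Cyyr1 call lost in 5 settings. Of 26 actin cytoskeleton genes, Myl9 and Tpm1 were higher in the knockout, and both were so in the blood endothelial gate. Mural markers were also highest in knockout members, at 1323 CPM against 338 in young control members. With at least 4 lymphatic markers the Myl9 ratio was 0.827, and the Tpm1 call was lost too. Tpm1 stood at 103, 315 and 112 CPM. Of 19 immediate-early genes, which respond quickly to stimulation, Fosb and Klf6 were lower in the knockout, at ratios of 0.413 and 0.471, and Nr4a2 was lower in old members, at 0.457, but at 1.81 without members that held RNA of other cells. Of 17 lipid uptake and caveola genes, the knockout was higher in Fabp5 and Cavin3 and lower in Plin2 and Cpt1a. The Plin2 call was lost in 9 settings, with a ratio of 1.36 when at least 2 markers were required, the Cpt1a call in 4 and the Cavin3 call in 3. In this list old members were lower in the fatty acid transporter gene Cd36 (101, 49.7 and 33.3 CPM) and higher in Apoe, at a ratio of 2.48, but 1.06 without members that held RNA of other cells. Of 15 BMP and TGF-beta genes, Tgfb1 was lower in the knockout besides Tgfb2, at 212, 101 and 116 CPM, with its call lost in 5 settings. Then 0 of 19 oxidative phosphorylation genes, 0 of 7 cell cycle genes and 0 of 9 cell-cycle inhibitor and p53 genes were called in old members. In the knockout 0 of the 19 and 0 of the 7 were called. Among the 9, Gadd45g was called higher there, at a ratio of 2.07, with its call lost in 4 settings. Cdkn2a had 0 UMIs in the young members and 0.853 CPM in old members.

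Beyond the lists, the 12 genes with the highest and the 12 with the lowest ratios were considered in each comparison. In the knockout the highest besides Ddx3y, Isg15, Sele, Vcam1 and Il6 included Plscr1, Kcna1, Sema3g, Rasl11a, Rrad and Rgs5, a marker of pericytes. The summed Schwann and mural markers were highest in knockout members, as given above. Sema3g, a semaphorin gene of blood endothelium, stood at 2.99, 60.7 and 4.26 CPM with UMIs in 23 knockout members. The lowest in the knockout included Xist, Wwtr1 and Iigp1 together with Krt77, Fcgbp, Dsc3, Trim29, Fam25c, Ccl27a, Clca3a2 and Krt15. Krt77, a keratin gene, stood at 211, 1.84 and 200 CPM in members and at 243, 38.2 and 483 CPM in the blood endothelial gate. Fcgbp had 169, 0 and 118 UMIs, at least 15.2-fold lower in the knockout against a floor of 3 UMIs per library, and stood at 791, 176 and 456 CPM in the keratinocyte gate. The summed keratinocyte markers were lowest in knockout members.

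In old members the highest were Sele, Krt17, Cst6, Sprr1a, Krt79, Prune2, Epcam, Sox9, Serpinb2, Sfn, S100a4 and Defb6. Krt17 and Krt79 are keratin genes and Epcam encodes an epithelial adhesion molecule, and the summed keratinocyte markers were highest there. Prune2 stood at 6.97, 25.8 and 53.7 CPM (7.71, 4.27 to 14.9) and S100a4, a calcium-binding protein gene, at 59.2, 201 and 234 CPM (3.94, 3.17 to 4.93). The lowest in old members were Gbp2b, Lypd6, Ccl8, Stc1, Gbp4, Cd24a, Ednrb, Klrb1f, Igtp, Cldn11, Iigp1 and Plat. Lypd6, which encodes a Ly6 family protein, stood at 52.8, 23.9 and 1.71 CPM (0.0323, 0.00386 to 0.120) and was 46.6 times as high in young control members as in their blood endothelial gate. Klrb1f, a killer-cell lectin-like gene, stood at 63.2, 22.1 and 10.2 CPM, with 0 UMIs in the blood endothelial gate of both control libraries. Stc1, encoding stanniocalcin, stood at 95.1, 57.1 and 11.9 CPM, and Ednrb, an endothelin receptor gene, at 184, 149 and 35.8 CPM. Plat, encoding tissue plasminogen activator, stood at 148, 606 and 34.1 CPM, and its old call (0.230, 0.161 to 0.321) was kept in every setting.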

How the data were processed

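The 3 libraries of dorsal skin were made from collagenase I suspensions with 10x Genomics 3′ chemistry, per the labels' protocols. The deposited files hold UMI counts per gene and barcode for 31053 features, made with Cell Ranger 3.1.0 and the mm10 build, with Seurat 3.1.5 also named, per the submitters' processing notes. The sources used here do not say how barcodes were chosen before deposit.

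Members and gene lists were chosen with earlier results of these data known. UMIs were summed over members of a library and divided by their total (CPM), with exact Poisson intervals. Ratios carry the exact interval of the binomial split of both counts. List medians are log2 ratios with 0.5 added to each count, over genes with a mean of at least 5 CPM. The genes of the marker rule were left out of all calls. Named genes were the 12 highest and 12 lowest ratios per comparison by near bound, without mitochondrial, ribosomal, haemoglobin, immunoglobulin and unnamed genes and without genes over 10 times more abundant in another gate of at least 50 cells. Some genes that met this rule are not reported here. Genes of the fixed lists, the targeted genes and sex-linked genes were named besides. Doublets were not removed; removing the 8% of barcodes with the highest Scrublet score was an alternative, as were other marker numbers, mitochondrial, gene and level limits, thinning, leaving out the largest members, and TMM (edgeR 4.0.16) or median-of-ratios (DESeq2 1.42.0) scaling. Gates may overlap. Gene coordinates are from GENCODE M21 (GRCm38, counted from 1) and promoters from RefSeq GRCm38.p6. The size rule was tested on simulated counts. Scripts ran in Python 3.11.15 and R 4.3.3.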

Additional observations from a re-analysis of the deposited data

Results flagged for a closer look

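In the young knockout library 93 barcodes met the marker rule but lay over the mitochondrial limit, and none of the comparisons above used them. Their median depth was 1639 UMIs, and on a scale of UMIs outside mitochondrial genes they held 368 CPM of Nts, against 2252 in the members, and 61.3 CPM of Wwtr1, against 19.8. Il6 stood at 690 CPM there, against 345 in the members. The young control and old control libraries held 9 and 21 such barcodes. Rsad2 was called higher in members and lower in the blood endothelial gate in both comparisons: its ratio in members was 4.88 in the knockout and 4.67 in the old library. Without the tenth of members with the most UMIs its old ratio was 0.426. Sema3g was called higher in knockout members, at a ratio of 20.3, and lower in the blood endothelial gate, at 0.341, on 33 UMIs in 23 members. These differences between cell types were not tested, since each group is 1 library.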

How the results depend on the processing

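Member shares of the young control, young knockout and old control libraries were 3.46%, 2.55% and 5.09% with at least 2 markers, 2.44%, 0.489% and 1.51% with at least 4, and 0.196%, 0.308% and 0.522% without members that held 2 or more UMIs of 8 genes of other cells. That last setting left 23, 29 and 63 members. The knockout share was 1.29% with at least 1000 genes and 0.393% after thinning, and the old share 3.36% under a 10% mitochondrial limit, 3.58% with at least 1000 genes, 2.40% with an endothelial gene required and 1.69% after thinning. Genes called higher in the knockout numbered 278 with at least 2 markers, 80 with 4, 55 without members with other-cell UMIs, 218 and 75 with level limits of 5 and 50 CPM, 202 without the largest members and 40 without genes higher in another gate (a setting chosen after seeing the data). Genes called lower there numbered 345, 137 without members with other-cell UMIs, 137 at 50 CPM, 101 thinned and 109 without genes higher in another gate. In old members the higher calls numbered 172, 56, 15, 190, 43 and 10 in the same settings (2 markers, 4 markers, other-cell UMIs, 5 CPM, 50 CPM, other gate), and the lower calls 83 without members with other-cell UMIs.

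With at least 4 markers knockout ratios turned direction for Selp (0.579), Myl9 (0.827), Cxcl2 (0.713), Cxcl10 (0.785), Mgp (0.627) and Ccl2 (0.645), and the old ratio for Selp (0.885). Cxcl10 also turned at the 10% mitochondrial limit (0.766) and Plin2 with 2 markers (1.36). Without members with other-cell UMIs, Il6 (0.963) and Sparcl1 (0.385) turned in the knockout, and Nr4a2 (1.81), Sprr1a (0.803), Defb6 (0.643), Rsad2 (0.321), Cyyr1 (1.08), Cst6 (0.803) and the sex-linked median (-1.64 on the log2 scale) in the old library. Rsad2 also turned when thinned (0.374) and without the largest members (0.426), and the sex-linked median when thinned (-0.0042). The cause was not tested. Of 80 genes named in the knockout comparison 17 kept their call in all settings, 44 lost it in 1 to 3 and 19 in 4 or more, and of 60 in the old comparison 6, 43 and 11. No paired analysis was possible because each group is 1 library. The knockout values rest on 94 members, of which 1 holds 12.8% of the UMIs.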
